A study of Mus musculus with 48 samples.

Results

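Trgv4, Cxcr6, Itgae and Cd69 are genes known from T cells that live in the skin, and their levels were followed in whole skin of mice given inhibitors of the interleukin-15 (IL-15) pathway. They are 4 of 18194 genes that the arrays' annotation named. Each is read by the probe set of highest mean among those annotated to that gene alone. The 4 genes were selected on earlier results of these data: Trgv4 and Cxcr6 were known to be lower under il15rb at week 5. The values of that comparison are therefore given as a description, with no test. Trgv4, Cxcr6 and Itgae were among 13648 genes that passed a filter on low signal, and Cd69 did not pass it.

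RNA came from skin of C3H/HeJ mice, a strain that can develop alopecia areata, an autoimmune loss of hair. From what is known of the study, the disease was induced by grafting skin of affected mice, il15rb was an antibody against the shared beta chain of the IL-15 and IL-2 receptors, and jak3i and jak12i were inhibitors of Janus kinases. Janus kinases carry the signal of these receptors into the cell. The vehicle was phosphate-buffered saline (PBS), delivered intraperitoneally (ip), with a pump or by gavage. At week 5 the groups were il15rb (n = 3), PBS ip (n = 4) and sham (n = 4). At week 6 they were jak3i (n = 5), PBS pump (n = 3), jak12i (n = 5) and PBS gavage (n = 5). At week 13 il15rb, PBS ip, jak3i, PBS pump, jak12i and PBS gavage had 3 arrays each. The labels give neither the age of the mice nor what the sham animals received, and they do not say by which route each agent was given. Each treatment was set against the vehicle of the route known for it. One further week 5 array, whose title and treatment label disagree, was in no group. The series calls the arrays of a group biological replicates, and the p-values measure the spread between them.

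Resident T cells settle in a tissue and do not return to the blood. In mouse skin they include gamma delta T cells, many of them in the epidermis, and CD8 T cells that stay after an immune response. Trgv4 encodes a variable segment of the gamma chain of the T cell receptor and so marks some gamma delta T cells, though the numbering of these segments differs between naming systems. CXCR6 is a chemokine receptor whose ligand CXCL16 is made by skin cells. Itgae encodes CD103, the alpha chain that pairs with the integrin beta-7 chain (Itgb7) and holds T cells to E-cadherin (Cdh1) on epithelial cells. CD69 is a surface protein that removes the exit receptor S1PR1 from the cell surface. IL-15 is known to sustain resident T cells of the skin, and its receptor beta chain is encoded by Il2rb. In bulk skin, fewer cells of a type and less RNA per cell cannot be told apart.

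The genes lie on 4 chromosomes of the mouse assembly GRCm38.p6. Trgv4 is a V segment on chromosome 13, from 19184981 to 19185506. Cxcr6 lies on chromosome 9 from 123806477 to 123811754, Itgae on chromosome 11 from 73090505 to 73147449, and Cd69 on chromosome 6 from 129267324 to 129275375. Of the 4, Cxcr6 had a sequence around its gene start in the RefSeq table used here, of the same assembly. It is shown because Cxcr6 had the largest changes among the 4 genes and because Runx3, which encodes a factor known to bind the RUNX motif in CD8 T cells, is among the genes described further on. The sequence covers chr9:123806227-123806526, plus strand, 250 bases before and 50 from the gene start, with the RUNX match in capitals.
Cxcr6: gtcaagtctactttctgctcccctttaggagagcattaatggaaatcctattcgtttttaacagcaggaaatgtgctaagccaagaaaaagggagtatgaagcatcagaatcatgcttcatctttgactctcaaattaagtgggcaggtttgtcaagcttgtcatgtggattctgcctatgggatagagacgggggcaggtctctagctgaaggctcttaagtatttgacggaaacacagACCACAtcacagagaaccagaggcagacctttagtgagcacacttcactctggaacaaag
The RUNX letters TGTGGT matched once, on the minus strand, beginning at position -10 from the gene start. Both strands were searched, and 16.8% of 32851 gene starts in the table hold these letters in a window of that length. The letters TTCNNNGAA for STAT factors, GGTGTGA for T-box factors and TGANTCA for AP-1 were not in the window. They occur in 8.30%, 3.98% and 7.81% of the windows. A match is a description of letters, and no binding was measured.

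Values are log2 signals after robust multi-array averaging (RMA), so a difference of 1 is a doubling of signal. For each week the array with the highest lower quartile set a limit, below which a value was called near background. The limit was 5.43 at week 5, 5.61 at week 6 and 5.38 at week 13. Changes are the treated mean minus the vehicle mean, ± the standard error (SE) of the fit, and group values are mean ± SD. Tests are limma's moderated tests over 13648 genes, with p-values adjusted by Benjamini-Hochberg within each comparison and a threshold of 0.05. Whether the arrays of compared groups overlap is given as a description, and the share of all genes without overlap was not counted. Levels of different genes are not compared, since each probe set has its own response.

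Over the 13 groups, Cxcr6, Itgae and Cd69 were highest in the 3 vehicle groups of week 13, and Trgv4 was highest in the week 5 groups PBS ip and sham. Trgv4 averaged 8.59 ± 0.08 in PBS ip at week 5 and 8.20 ± 0.34 in sham, and was lowest in PBS pump at week 13 with 7.01 ± 0.33. From jak12i at week 6, which averaged 7.68 ± 0.12, down to the lowest group, no group differed from the next by more than their pooled SD. Cxcr6 averaged 9.86 ± 0.44 in PBS pump, 9.40 ± 0.13 in PBS gavage and 9.32 ± 0.42 in PBS ip at week 13. The next group, PBS ip at week 5, lay 1.85 below PBS ip of week 13, and the lowest was jak3i at week 6 with 5.63 ± 0.32, where 3 of 5 arrays were near background. Itgae averaged 10.14 ± 0.32 in PBS ip, 10.08 ± 0.51 in PBS pump and 9.90 ± 0.10 in PBS gavage at week 13, and was lowest in jak3i at week 6 with 7.52 ± 0.03. Cd69 stood above background in all arrays of a group in PBS pump (6.19 ± 0.47) and PBS gavage (5.48 ± 0.11) at week 13, and in 2 of 3 arrays of PBS ip (5.95 ± 0.80). The upper quartile of an array was 8.47 to 8.68 at week 5, 8.15 to 8.35 at week 6 and 8.68 to 8.78 at week 13. The weeks thus differ in the spread of all values, and the time and any technical difference between the weeks cannot be told apart. All treatment comparisons lay within 1 week.

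**Figure D1:**
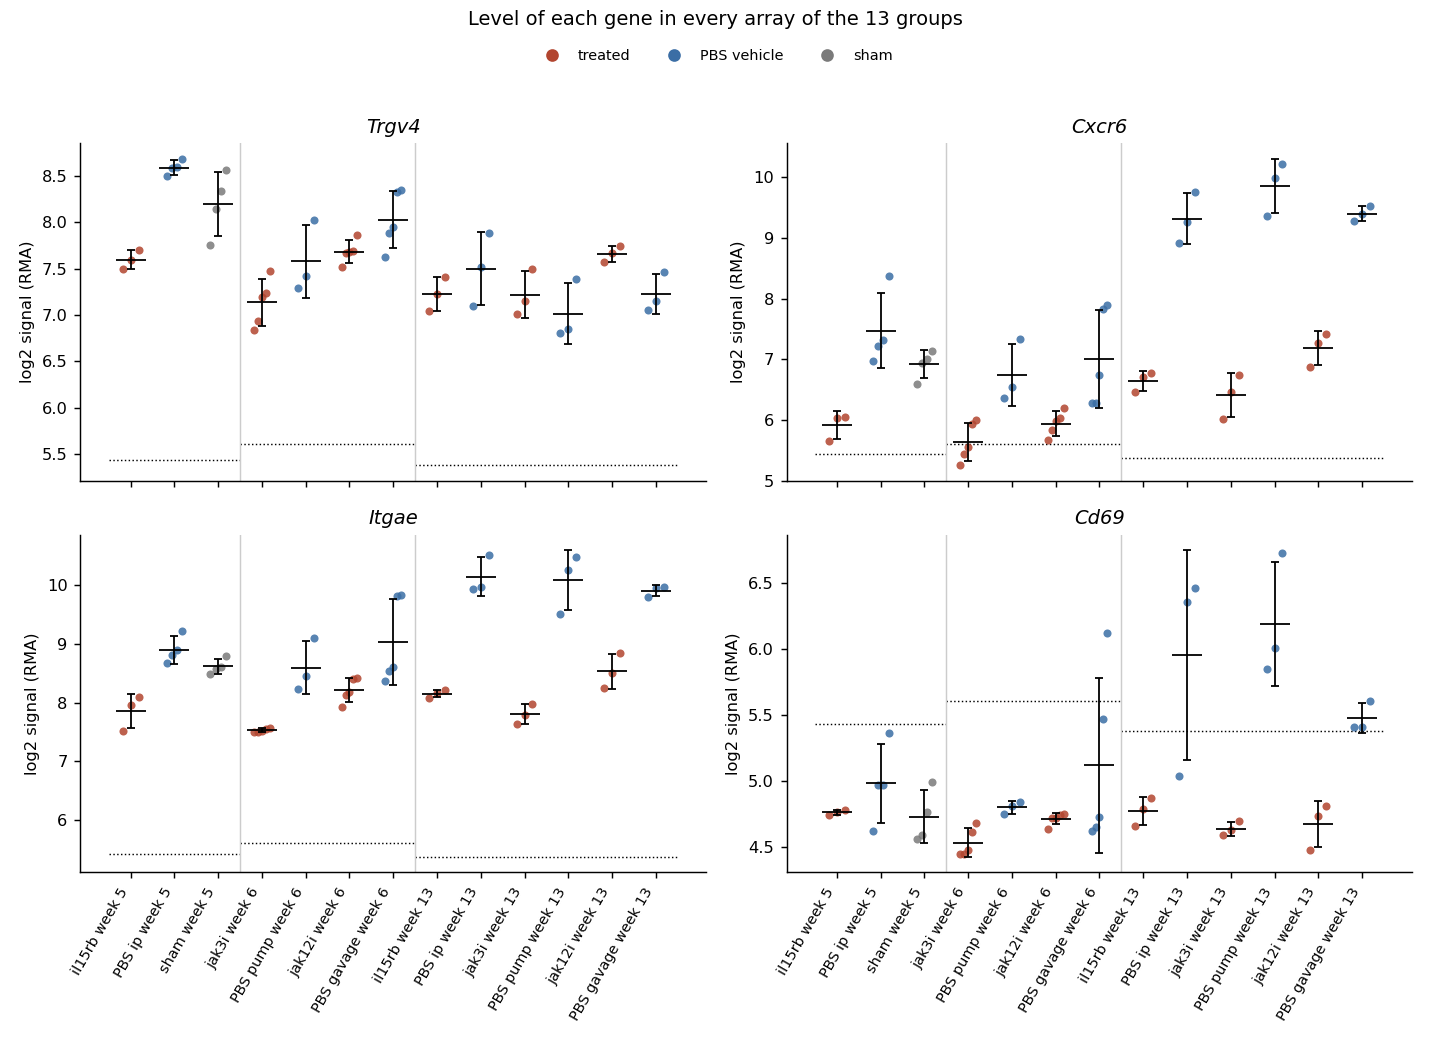
Log2 signal of Trgv4, Cxcr6, Itgae and Cd69 (4 panels) in each array (points) of the 13 groups, each treated group left of its vehicle, with the mean and SD in black and the near-background limit of the week dotted. Cxcr6 and Itgae of the week 13 vehicle groups lie above all treated groups of that week, while Trgv4 of the same arrays overlaps between il15rb and PBS ip and between jak3i and PBS pump.

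Probe sets of 1 gene correlated closely over the arrays, except for 1 of Trgv4, though their changes could differ in size. The second Trgv4 probe set, 1422189_x_at, correlated with the one used, 1450521_a_at, at r = 0.923 over 47 arrays, and the third, 1427802_a_at, lay between 3.88 and 4.27, near background on all arrays, with r = -0.167. A further probe set names both Trgv4 and Trgv2 and was left out. Probes of these sets may also read transcripts of related gamma segments, which was not tested. The second probe sets of Cxcr6 and Itgae correlated with those used at r = 0.962 and 0.935, and Cd69 had 1 probe set. The second Itgae probe set changed by -0.69, -0.53 and -0.48 under il15rb, jak3i and jak12i at weeks 5 and 6. The one used changed by -1.04, -1.07 and -0.82. At week 13 the second one changed more than the one used under all 3 treatments.

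At week 5, skin of il15rb mice had less Trgv4, Cxcr6 and Itgae signal than skin of PBS ip mice, and no array of one group overlapped the other for these 3 genes. Trgv4 read 7.50, 7.59 and 7.70 in il15rb arrays, against 8.50, 8.59, 8.69 and 8.59 in PBS ip arrays, a change of -0.99. Cxcr6 read 5.65, 6.04 and 6.05 in il15rb arrays, against 6.97, 8.37, 7.23 and 7.31 in PBS ip arrays, a change of -1.56. The PBS ip array at 8.37, replicate 3, stood above its group, and all il15rb arrays lay below the lowest PBS ip array. Itgae read 7.52, 8.09 and 7.95 in il15rb arrays, against 8.80, 9.21, 8.66 and 8.89 in PBS ip arrays, a change of -1.04. Cd69 was near background in all 7 arrays, with 4.76 ± 0.02 in il15rb and 4.98 ± 0.30 in PBS ip. Limma called 0.0733% of genes lower in this comparison, 10 genes. Since it was used in choosing the genes, nothing is read here from their count or from the lack of overlap.

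The sham group of week 5 averaged between il15rb and PBS ip for Trgv4, Cxcr6 and Itgae. Against sham, PBS ip differed by 0.39 in Trgv4, 0.55 in Cxcr6 and 0.28 in Itgae, with overlapping arrays, and limma called none of the 3, against 0.0293% of all genes called either way. The PBS ip and il15rb arrays had also served to choose the genes. Trgv4 was 0.60, Cxcr6 1.01 and Itgae 0.76 lower in il15rb than in sham, with no overlap between arrays. Limma called none of the 3 there either, against 0.0293% of all genes. Cd69 was near background in all sham arrays, with 4.73 ± 0.20.

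At week 6, jak3i skin had less Cxcr6 and Itgae than PBS pump skin, while Trgv4 did not pass the test. Cxcr6 read 5.45, 5.93, 5.25, 5.55 and 5.99 in jak3i arrays, against 6.37, 7.33 and 6.54 in PBS pump arrays. No array overlapped, 3 of the jak3i arrays were near background, and the signal was 2.16-fold lower (-1.11 ± 0.30, adjusted p = 0.0269 by limma). Itgae read 7.55, 7.57, 7.49, 7.51 and 7.50 in jak3i arrays, a range of less than 0.1, against 8.45, 9.10 and 8.23 in PBS pump arrays. It fell by 1.07 ± 0.24 with no overlap (adjusted p = 0.00662 by limma). Limma called 3.64% of genes lower, against 2 of the 3 genes tested here. Replicate 2 of PBS pump had the highest Cxcr6 and Itgae, and without it the changes were -0.82 (adjusted p = 0.331 by limma) and -0.81 (adjusted p = 0.159). Without PBS pump replicate 3, jak3i replicate 3 or jak3i replicate 4, Cxcr6 missed the threshold too, at adjusted p = 0.0705, 0.0727 and 0.0607. With the second probe sets neither gene passed, Cxcr6 at -1.24 (adjusted p = 0.0701) and Itgae at -0.53 (adjusted p = 0.276). Trgv4 read 7.20, 6.84, 7.23, 6.94 and 7.48 in jak3i arrays, against 8.03, 7.42 and 7.29 in PBS pump arrays. The groups overlapped, and the change was -0.44 ± 0.18 (95% interval -0.81 to -0.07, adjusted p = 0.196 by limma). Fitted on arrays of week 6 only, neither Cxcr6 (adjusted p = 0.104) nor Itgae (adjusted p = 0.064) passed. Against PBS of both routes Trgv4 passed, with a change of -0.72 (adjusted p = 0.000175). Cd69 was near background in all arrays of both groups.

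At week 6, jak12i skin had less Cxcr6 and Itgae than PBS gavage skin, but 2 vehicle arrays carried most of the difference. Cxcr6 read 5.66, 6.19, 5.98, 6.03 and 5.84 in jak12i arrays, against 6.28, 6.28, 7.89, 6.74 and 7.83 in PBS gavage arrays. It fell by 1.06 ± 0.26 with no overlap (adjusted p = 0.00793 by limma). Itgae read 8.13, 8.41, 8.40, 7.93 and 8.18 in jak12i arrays, against 8.36, 8.53, 9.82, 8.60 and 9.82 in PBS gavage arrays. It fell by 0.82 ± 0.21, with the lowest PBS gavage array below 2 jak12i arrays (adjusted p = 0.0109 by limma). Limma called 8.1% of genes lower, against 2 of the 3 genes tested here. Replicates 3 and 5 of PBS gavage stood apart from the other 3 in Cxcr6 and Itgae, and also in Cd69, at 6.12 and 5.47 against 4.62 to 4.73. In replicate 5 the mean of 5 skeletal muscle genes was 8.02, against 12.79 to 13.86 in the other arrays of its group, and in replicate 3 it was 13.01. The part of muscle content in the result was not tested. Without both arrays Cxcr6 changed by -0.49 (adjusted p = 0.299 by limma) and Itgae by -0.29 (adjusted p = 0.418), an alternative chosen after seeing the data. Leaving out 1 of them ended the Itgae call, with adjusted p = 0.0668 without replicate 3 and 0.063 without replicate 5, and kept that of Cxcr6. Fitted on arrays of week 6 only, Itgae did not pass (adjusted p = 0.064). Against PBS pump of the same week, Itgae in jak12i changed by -0.39 (adjusted p = 0.249). With its second probe set, Itgae in jak12i changed by -0.48 against PBS gavage (adjusted p = 0.112). Trgv4 read 7.52 to 7.87 in jak12i arrays with a median of 7.68, and 7.63 to 8.35 in PBS gavage arrays. The groups overlapped, and the change was -0.34 ± 0.16 (95% interval -0.66 to -0.02, adjusted p = 0.162 by limma). Cd69 was 4.71 ± 0.04 in jak12i and 5.12 ± 0.66 in PBS gavage, near background in all arrays but replicate 3 of PBS gavage.

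At week 13, Cxcr6 and Itgae were lower under all 3 treatments, with no overlap with the vehicle arrays, and Trgv4 was called under none. Cxcr6 read 6.70, 6.46 and 6.77 in il15rb arrays, against 9.26, 8.92 and 9.76 in PBS ip arrays. It fell by 2.67 ± 0.34, 6.37-fold lower (adjusted p = 7.03e-07 by limma). In jak3i arrays it read 6.02, 6.75 and 6.46, against 9.99, 10.23 and 9.37 in PBS pump arrays. It fell by 3.45 ± 0.34, 10.96-fold (adjusted p = 3.36e-09 by limma), the largest change of the 4 genes in the 6 treatment comparisons. In jak12i arrays it read 6.88, 7.27 and 7.42, against 9.40, 9.53 and 9.28 in PBS gavage arrays, and it fell by 2.21 ± 0.34, 4.63-fold (adjusted p = 1.51e-05 by limma). Treated arrays of week 13 spanned 6.02 to 7.42 and vehicle arrays 8.92 to 10.23.

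Itgae followed Cxcr6 with smaller changes at week 13. It read 8.17, 8.21 and 8.08 in il15rb arrays, against 9.94, 9.97 and 10.51 in PBS ip arrays, and fell by 1.99 ± 0.27, 3.96-fold (adjusted p = 2.47e-06 by limma). In jak3i arrays it read 7.79, 7.97 and 7.63, against 10.26, 10.47 and 9.50 in PBS pump arrays. It fell by 2.28 ± 0.27, 4.85-fold (adjusted p = 1.58e-07 by limma). In jak12i arrays it read 8.25, 8.50 and 8.84, against 9.79, 9.95 and 9.96 in PBS gavage arrays, and fell by 1.37 ± 0.27, 2.59-fold (adjusted p = 0.000406 by limma). Limma called 10.6%, 6.32% and 10.3% of genes lower under il15rb, jak3i and jak12i, against 2 of the 3 genes tested here in each comparison. The second probe sets gave the same calls, from -2.55 to -3.53 for Cxcr6 and from -1.81 to -2.41 for Itgae.

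Cd69 was near background in all 9 treated arrays of week 13 and measurable in 8 of 9 vehicle arrays. It read 4.79, 4.87 and 4.66 in il15rb arrays, against 6.47, 5.04 and 6.36 in PBS ip arrays, of which replicate 2 was near background. In jak3i arrays it read 4.59, 4.70 and 4.63, against 5.85, 6.73 and 6.01 in PBS pump arrays. In jak12i arrays it read 4.48, 4.74 and 4.81, against 5.61, 5.41 and 5.41 in PBS gavage arrays. No array of a treated group overlapped its vehicle. As Cd69 did not pass the filter, its test comes from a fit over 18194 genes without one, and its measured changes were -1.18 ± 0.27 under il15rb (adjusted p = 0.00173 by limma), -1.55 ± 0.27 under jak3i (adjusted p = 9.76e-05) and -0.80 ± 0.27 under jak12i (adjusted p = 0.036). With the treated arrays set to the near-background limit of 5.38, Cd69 was at least 1.49-fold lower under il15rb, 1.76-fold under jak3i and 1.07-fold under jak12i. That fit called 9.17%, 5.09% and 8.04% of genes lower. Without PBS ip replicate 2 the Cd69 change under il15rb was -1.64.

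Trgv4 at week 13 did not follow the other genes. It read 7.05, 7.23 and 7.41 in il15rb arrays, against 7.52, 7.10 and 7.88 in PBS ip arrays, a change of -0.27 ± 0.20 (95% interval -0.68 to 0.14, adjusted p = 0.344 by limma). In jak3i arrays it read 7.15, 7.50 and 7.01, against 6.85, 7.39 and 6.80 in PBS pump arrays, a change of 0.20 ± 0.20 (95% interval -0.21 to 0.62, adjusted p = 0.546 by limma). In jak12i arrays it read 7.57, 7.66 and 7.75, against 7.15, 7.47 and 7.05 in PBS gavage arrays. These did not overlap and the treated arrays were higher, with a change of 0.44 ± 0.20 (95% interval 0.02 to 0.85, adjusted p = 0.122 by limma). Against PBS of all routes this change was 0.41 (adjusted p = 0.0455) and against PBS pump 0.65 (adjusted p = 0.0135). The second probe set changed by -0.34, -0.18 and 0.45 under il15rb, jak3i and jak12i, so the 2 probe sets differ in sign under jak3i, and none of its changes passed.

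**Figure D2:**
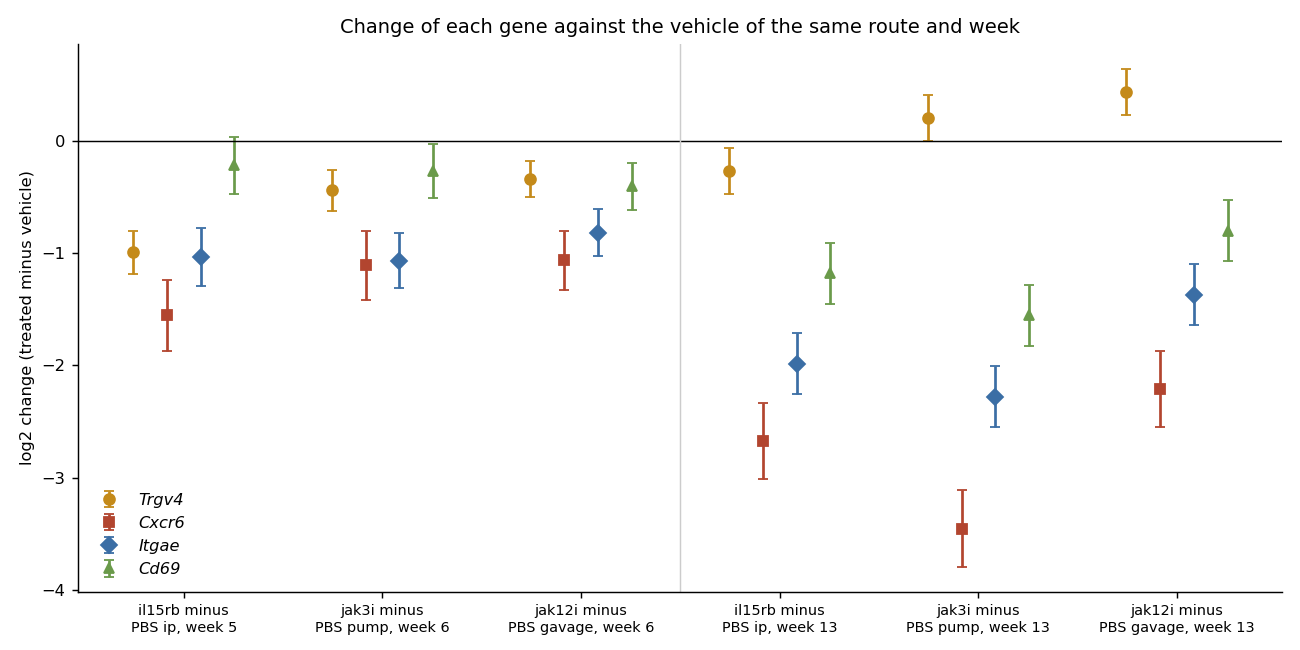
Log2 change of each gene, treated minus vehicle, in the 6 treatment comparisons, with bars of 1 SE from the fit over all groups (for Cd69 from the fit without a filter). Cxcr6 has the lowest point in each comparison, and Trgv4 of week 13 lies between -0.27 and 0.44.

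The vehicle arrays of week 13 varied in the level of muscle genes. The mean of 5 skeletal muscle genes was 13.55 to 13.88 in il15rb, against 10.89, 13.05 and 7.52 in PBS ip replicates 1, 2 and 3. It was 13.47 to 13.49 in jak3i, against 11.70, 7.93 and 13.05 in PBS pump replicates 1, 2 and 3, and 12.53 to 13.98 in jak12i, against 12.92 to 13.16 in PBS gavage. All 5 muscle genes were called higher under il15rb, Myh4 was under jak3i, and none was under jak12i. Over all genes, 15.1%, 9.67% and 11.6% were called higher under il15rb, jak3i and jak12i. Nothing is read from the smaller counts under jak3i and jak12i. The arrays of lowest muscle level, PBS ip replicate 3 and PBS pump replicate 2, had the highest Cxcr6 and Itgae of their groups. Without PBS ip replicate 3, Cxcr6 under il15rb changed by -2.45 and Itgae by -1.80. Without PBS pump replicate 2, Cxcr6 under jak3i changed by -3.27 and Itgae by -2.08, and all 4 calls held. With replicates 1 and 3 of PBS ip left out, Cxcr6 under il15rb changed by -2.28 (adjusted p = 0.00711 by limma) and Itgae by -1.82 (adjusted p = 0.00761), and Cd69 by -0.26. With replicates 1 and 2 of PBS pump left out, Cxcr6 under jak3i changed by -2.96 (adjusted p = 5.28e-05) and Itgae by -1.70 (adjusted p = 0.00185). These alternatives were chosen after seeing the data, and the lone vehicle array left is assumed to vary like the other groups. Limma's F test over the 3 vehicle groups called none of Trgv4, Cxcr6 and Itgae (adjusted p = 0.501, 0.715 and 0.916), against 0.147% of genes called. PBS pump minus PBS ip was -0.49, 0.55 and -0.06 for these genes, and PBS gavage minus PBS ip was -0.28, 0.09 and -0.24. These misses do not show that the vehicle groups were alike.

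The change of Cxcr6 and Itgae under jak3i was larger at week 13 than at week 6. The difference of the changes was -2.34 ± 0.46 for Cxcr6 (adjusted p = 0.000981 by limma) and -1.21 ± 0.37 for Itgae (adjusted p = 0.0306), against 9.2% of genes called either way. For Itgae, leaving out 1 of 6 arrays raised the adjusted p above 0.05: 0.108 and 0.058 without PBS pump week 6 replicates 3 and 1, 0.0924 and 0.0544 without jak3i week 13 replicates 3 and 1, and 0.0901 and 0.0707 without PBS pump week 13 replicates 2 and 1. For Cd69 no difference is given, since jak3i and PBS pump were both near background at week 6, where no fall could show. For Cxcr6, 3 of 5 jak3i arrays of week 6 were near background, which limits the fall that week 6 could show. For Trgv4 it was 0.65 ± 0.27 (adjusted p = 0.134).

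Under jak12i, the change of Trgv4 was called as different between the weeks, and those of Cxcr6 and Itgae were not. The Trgv4 call was lost when single arrays were left out, so it does not set Trgv4 apart from the others. The Trgv4 change was 0.44 at week 13 and -0.34 at week 6, a difference of 0.78 ± 0.26 (adjusted p = 0.0337 by limma), against 16.1% of genes called. The adjusted p rose above 0.05, and the call was lost, when any 1 of 8 arrays was left out. It was 0.118 and 0.0632 without PBS gavage week 13 replicates 3 and 1, 0.0806 and 0.0586 without jak12i week 13 replicates 3 and 2, 0.0624 and 0.055 without PBS gavage week 6 replicates 3 and 5, and 0.052 and 0.0502 without jak12i week 6 replicates 5 and 2. With quantile normalization it was 0.0824. The difference was -1.15 ± 0.43 for Cxcr6 (adjusted p = 0.0635) and -0.55 ± 0.35 for Itgae (adjusted p = 0.29). Cxcr6 passed without PBS gavage week 6 replicate 3 (-1.37, adjusted p = 0.0214) or replicate 5 (-1.35), the arrays named above. Under il15rb, with the change at week 5 used for the choice, the changes stood at -0.27 at week 13 and -0.99 at week 5 for Trgv4, -2.67 and -1.56 for Cxcr6, and -1.99 and -1.04 for Itgae.

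Between the treatments of week 13 no change of the 3 genes was called as different, where limma called 0.00733% of genes, 1 gene, in each of the 3 contrasts. The widest gap was that of Cxcr6 between jak3i and jak12i, -1.24 ± 0.48 (adjusted p = 0.642). Itgae differed by -0.91 ± 0.39 in the same contrast (adjusted p = 0.69), and Trgv4 by 0.71 ± 0.29 between jak12i and il15rb (adjusted p = 0.75). At week 6, jak3i and jak12i differed by -0.05 ± 0.40 in the change of Cxcr6, -0.25 ± 0.32 in that of Itgae and -0.10 ± 0.24 in that of Trgv4, none of them called, against 2.37% of genes. These misses do not show that the treatments act alike.

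**Figure D3:**
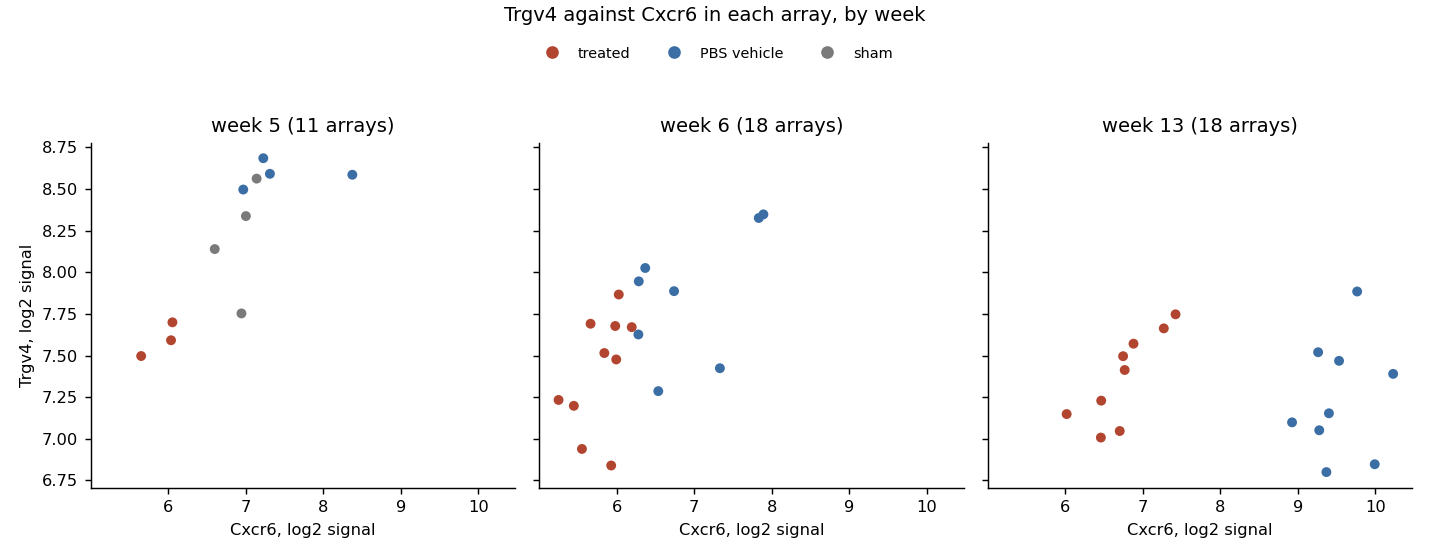
Trgv4 (vertical, log2 signal) against Cxcr6 (horizontal, log2 signal) in each array, 1 panel a week, treated, PBS and sham arrays coloured. At week 13 the treated arrays span 6.02 to 7.42 and the PBS arrays 8.92 to 10.23 in Cxcr6, while in Trgv4 they span 7.01 to 7.75 and 6.80 to 7.88.

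T cell receptor genes moved as well, so each gene was also set against the mean of the CD3 and zeta chain genes Cd3d, Cd3e, Cd3g and Cd247 of the same array. At week 13 the mean of Trgv4 relative to these chains was higher in treated skin, and those of Cxcr6 and Itgae lower, under all 3 treatments. The arrays did not overlap. How often other genes show no overlap in this measure was not counted, so nothing is read from it. The chain mean itself changed by -1.10 under il15rb, -1.30 under jak3i and -0.46 under jak12i. Relative Trgv4 was -0.07 ± 0.24 in il15rb and -0.90 ± 0.16 in PBS ip, 0.15 ± 0.14 in jak3i and -1.35 ± 0.25 in PBS pump, and -0.06 ± 0.08 in jak12i and -0.96 ± 0.22 in PBS gavage. The differences were 0.83, 1.51 and 0.89. Relative Cxcr6 differed by -1.57 under il15rb, -2.15 under jak3i and -1.75 under jak12i, and relative Itgae by -0.89, -0.98 and -0.91. An exact two-sided permutation test of 3 against 3 arrays gives p = 0.1 in each of these cases, the smallest it allows, and 0.136 adjusted over 15 tests.

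At week 6 the relative shifts were smaller. Relative Cxcr6 was -1.30 ± 0.24 in jak12i and -0.68 ± 0.41 in PBS gavage, a difference of -0.62 (exact permutation p = 0.0159, 0.136 adjusted over the 15 tests), with overlap. Relative Itgae was 0.79 ± 0.07 in jak3i and 1.23 ± 0.45 in PBS pump, a difference of -0.45 (exact permutation p = 0.0357, the smallest for 5 against 3 arrays, 0.136 adjusted), without overlap. The other 4 relative differences of week 6 had exact permutation p-values between 0.135 and 0.321. At week 5 the relative levels differed by -0.10 in Trgv4, -0.66 in Cxcr6 and -0.14 in Itgae between il15rb and PBS ip, all with overlap, while the chain mean changed by -0.89. With Cd3e alone as the T cell level they differed by -0.50, -1.06 and -0.54, without overlap for Trgv4 and Cxcr6.

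**Figure D4:**
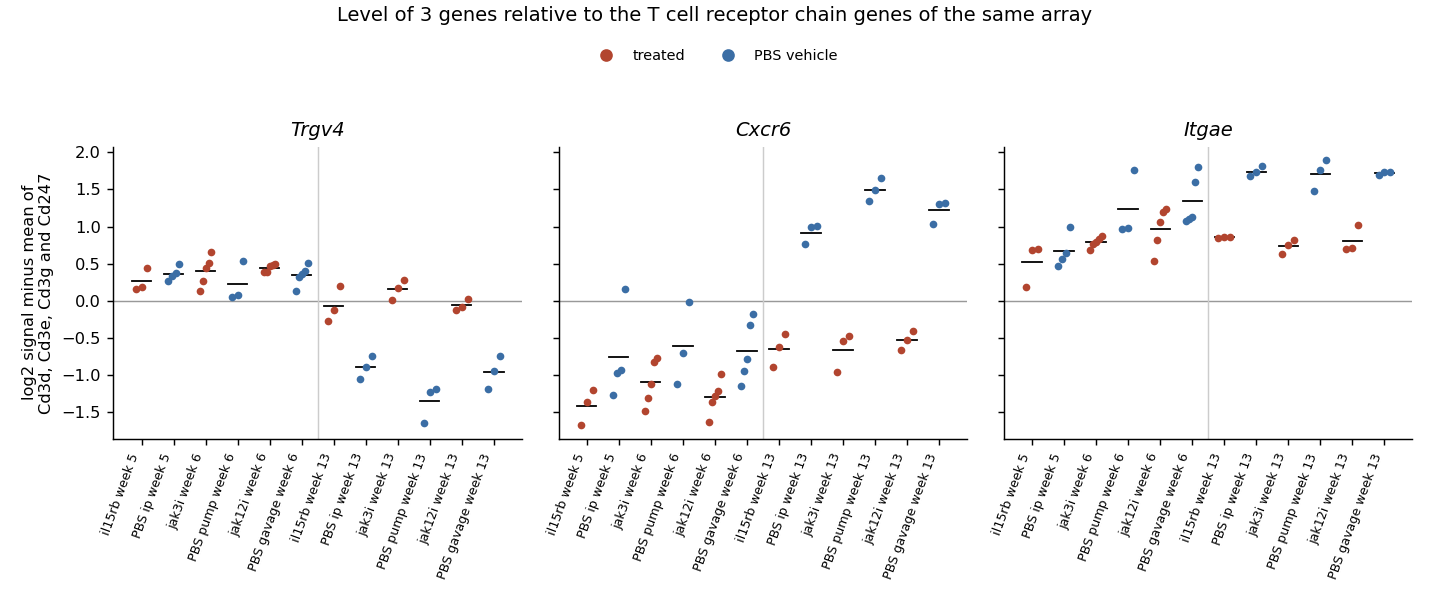
Log2 signal of Trgv4, Cxcr6 and Itgae minus the mean of Cd3d, Cd3e, Cd3g and Cd247 of the same array (points), treated groups left of their vehicles, lines at group means. At week 13 Trgv4 means are -0.07, 0.15 and -0.06 in treated groups and -0.90, -1.35 and -0.96 in vehicle groups, and Cxcr6 and Itgae are ordered the other way.

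Of 13 partner genes tested, 4, 7 and 5 fell at week 13 under il15rb, jak3i and jak12i, beside 10.6%, 6.32% and 10.3% of all genes, and 2, 1 and 2 rose, beside 15.1%, 9.67% and 11.6%. None passed at weeks 5 and 6, where 0.0733%, 3.64% and 8.1% of all genes were called lower. The difference between the weeks was not tested for the partners. Their median changes at week 13 were -0.22, -0.42 and -0.20, against 0.01, 0.03 and 0.02 over all genes. Cxcl16, the ligand of CXCR6, averaged 9.03 ± 0.14 in il15rb and 10.05 ± 0.27 in PBS ip, and its changes were -1.02 ± 0.15 under il15rb (adjusted p = 6.7e-06 by limma), -1.15 ± 0.15 under jak3i and -0.96 ± 0.15 under jak12i. Itgb7, the chain that pairs with CD103, fell with changes of -1.20, -1.18 and -0.97. Itgb8, a chain of an integrin that activates transforming growth factor beta, fell with changes of -1.11, -0.87 and -0.67. Il2rb, the receptor chain that the il15rb antibody is named for, fell with changes of -1.55 ± 0.15, -1.59 ± 0.15 and -1.14 ± 0.15. S1pr1, the exit receptor that CD69 opposes and that blood vessel cells also carry, rose by 0.76 ± 0.25 (adjusted p = 0.0238 by limma), 1.01 ± 0.25 and 1.14 ± 0.25.

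Other partners passed in 1 or 2 of the week 13 comparisons. Cdh1, which encodes E-cadherin, fell by 0.42 ± 0.10 under jak3i and changed by -0.22 and -0.20 under il15rb and jak12i without passing. Il15ra, the chain that presents IL-15, fell by 0.48 ± 0.11 under jak3i. Itgb6, a chain of another integrin that activates transforming growth factor beta, fell by 0.75 under jak3i. Tgfb1 fell by 0.46 under jak12i with overlapping arrays, and Tgfb2 rose by 0.67 under il15rb and 0.62 under jak12i. Il15 itself changed by 0.22, -0.05 and 0.15, and Il7 by -0.41, -0.35 and -0.01, none of which passed. Tgfb3 did not pass either, with changes of 0.05, 0.72 and 0.17.

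**Figure D5:**
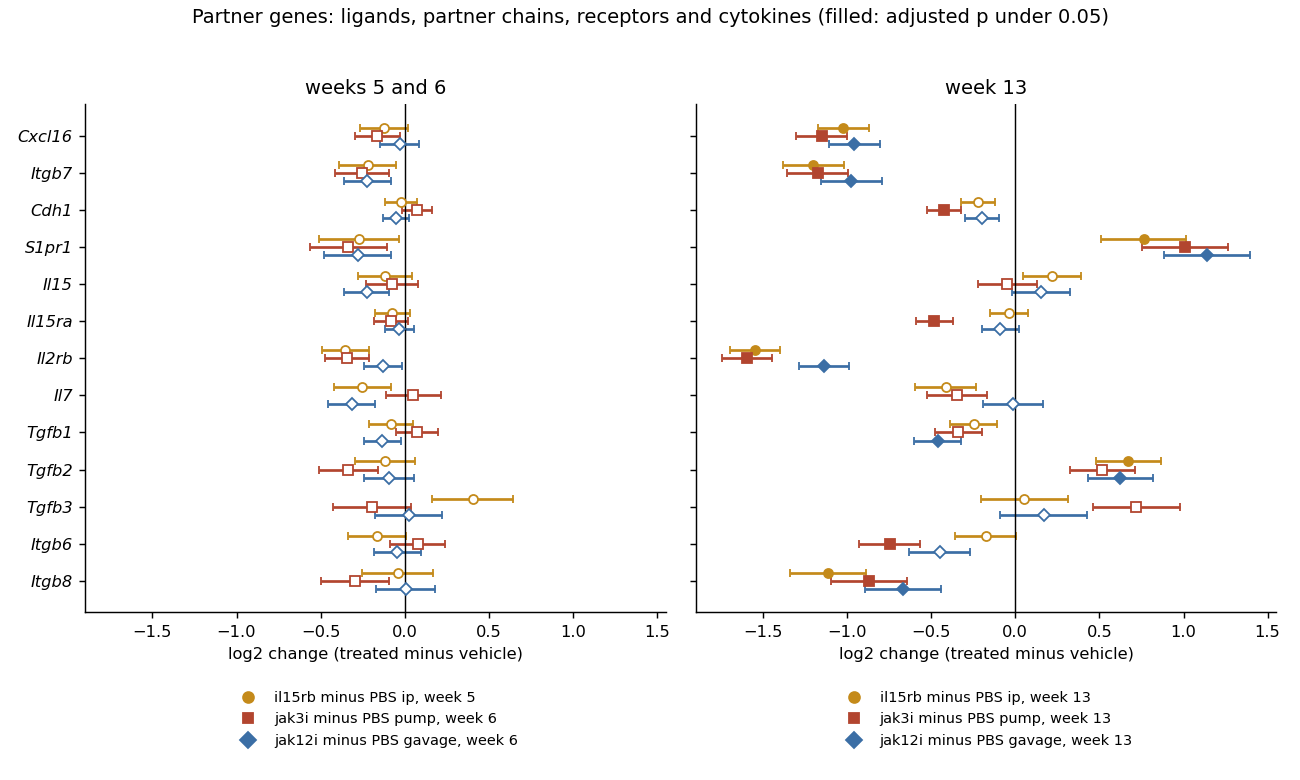
Log2 change of 13 partner genes, treated minus vehicle, with bars of 1 SE, at weeks 5 and 6 (left) and week 13 (right), filled where the adjusted p was under 0.05. No partner is filled on the left, and on the right Cxcl16, Itgb7, Il2rb and Itgb8 are filled below 0 and S1pr1 above 0 for all 3 treatments.

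Genes of the resident memory program, as listed by hand with earlier results known, fell in part. Of 15 tested, 7 fell and none rose under il15rb at week 13, 8 fell and 1 rose under jak3i, and 6 fell and 1 rose under jak12i. Over all genes, 10.6%, 6.32% and 10.3% fell and 15.1%, 9.67% and 11.6% rose. The list's medians were -0.34, -0.26 and -0.30. Runx3, which encodes a factor that supports CD103 in CD8 T cells, fell with changes of -0.78 ± 0.20 under il15rb, -1.24 ± 0.20 under jak3i and -0.81 ± 0.20 under jak12i. Rgs1, which dampens chemokine receptor signals, fell with changes of -2.16 ± 0.43 under il15rb and -1.53 ± 0.43 under jak12i, and was also called lower under jak3i. Hic1 rose by 0.70 under jak3i. At week 6, 2 of 15 fell under jak3i and 4 under jak12i, among them Rgs2 with changes of -0.53 and -0.64, and at week 5 none passed, beside 3.64%, 8.1% and 0.0733% of all genes lower under jak3i, jak12i and il15rb. Of 7 genes that recirculating T cells use and resident ones keep low, 2 rose under il15rb, 2 rose and 1 fell under jak3i, and 4 rose under jak12i at week 13, beside the same shares of all genes, and none passed earlier. S1pr1, also counted among the partners, and Satb1 rose under all 3. Satb1 rose by 1.07, 0.64 and 0.94, Klf2 by 1.29 under jak12i with overlapping arrays, and Il7r fell by 0.98 under jak3i. These genes are also used by other skin cells, and their part was not tested.

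Other gamma delta T cell genes give little to set beside Trgv4. Of 24 such genes listed, 11 were on the array with a probe set of their own and 8 passed the filter, and none of these encodes a T cell receptor chain. At weeks 5 and 6, 1 of the 8 fell under each treatment, beside 0.0733%, 3.64% and 8.1% of all genes under il15rb, jak3i and jak12i. At week 13, 3, 2 and 1 fell, beside 10.6%, 6.32% and 10.3%. Under jak12i this is close to the share of all genes, and nothing is read from it. Klrk1, which encodes the activating receptor NKG2D of gamma delta and CD8 T cells, fell with changes of -1.73, -2.11 and -1.79 under il15rb, jak3i and jak12i at week 13, and was not called earlier. Cd7 fell with changes of -0.74 under il15rb at week 5, -0.45 under jak12i at week 6 and -0.45 under il15rb at week 13. Fcer1g, a signalling chain that several immune receptors share, fell by 1.15 under jak3i at week 6, and Gpr18 fell by 0.75 under jak3i at week 13. Sox13, known from gamma delta T cells that make interleukin-17, fell by 0.42 under il15rb at week 13. Il17a, Ccr6 and Cd163l1, also known from such cells, passed in none of the 6 treatment comparisons.

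The genes most alike to Trgv4 over all weeks were not those most alike to Cxcr6, Itgae and Cd69. With the mean of each week removed, Cxcr6 was most alike over 47 arrays to Ms4a4b (r = 0.969), Ltb (0.957), Itgae (0.955), Nkg7 (0.949) and Itgal (0.946). Itgae was most alike to Nkg7 (0.963), Cxcr6, Acap1 (0.953), Ms4a4b (0.952) and Klrd1 (0.952). Nkg7 encodes a granule protein of cytotoxic cells, Klrd1 a receptor chain of natural killer and CD8 T cells, and Itgal the alpha chain of LFA-1. Cd69 was most alike to Klrc1 (0.892), Ccl5 (0.879), Ikzf3 (0.875), Trav9d-3 (0.869) and Spn (0.868). Trgv4 was most alike to Cd247 (0.743), the zeta chain gene, and then to Ctnnd2 (0.695), D16Ertd472e (0.671), Adnp2 (0.667) and Gem (0.657). Within weeks, Trgv4 correlated with Cxcr6 at r = 0.82 over the 11 arrays of week 5, 0.67 over the 18 of week 6 and -0.07 over the 18 of week 13, and with Itgae at 0.88, 0.79 and 0.02. At week 13 treated and vehicle arrays form separate clusters in Cxcr6 and Itgae. The arrays share their groups and weeks, and the correlations describe them only. The week 5 arrays include those of il15rb and PBS ip, in which Trgv4 and Cxcr6 were known to differ when they were chosen. Nothing is therefore read from the correlation of Trgv4 and Cxcr6 at week 5 or from its contrast with week 13. At week 13 Cd247 changed by -0.38, -0.57 and 0.12 under il15rb, jak3i and jak12i, and Nkg7 by -2.39, -2.65 and -1.37.

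Markers of some cells that could carry these genes moved beside them, and markers of others moved in part. The CD8 coreceptor genes Cd8a and Cd8b1 fell at week 13, with changes of -2.17 and -1.80 under il15rb, -2.40 and -2.43 under jak3i, and -1.88 and -2.04 under jak12i. None of their changes at weeks 5 and 6 passed, which lay between -0.22 and 0.07. Cd3g fell in all 6 treatment comparisons, with changes of -1.67, -1.95 and -0.76 under il15rb, jak3i and jak12i at week 13 and -1.30, -1.57 and -0.96 at weeks 5 and 6. Of 6 T cell genes tested, 5, 5 and 3 fell at week 13 and 2, 1 and 2 at weeks 5 and 6. For this and the next cell types, the shares of all genes called lower were 10.6%, 6.32% and 10.3% at week 13 and 0.0733%, 3.64% and 8.1% at weeks 5 and 6. The shares called higher at week 13 were 15.1%, 9.67% and 11.6%. The mean of the 8 T cell genes on the array was 6.97 to 7.22 in il15rb, 6.86 to 7.02 in jak3i and 7.18 to 7.49 in jak12i at week 13, against 7.84 to 8.44 in PBS ip, 7.61 to 8.21 in PBS pump and 7.75 to 8.09 in PBS gavage. Of 2 CD4 T cell genes tested, Cd4 fell under il15rb at week 13, and neither passed in another treatment comparison. Of 4 regulatory T cell genes tested, Tnfrsf18 fell under jak12i at week 6 and under il15rb at week 13. Under jak3i at week 13 Ctla4, Tnfrsf18 and Tnfrsf4 fell, and under jak12i none fell and Ikzf2 rose. Foxp3 did not pass the filter. Itgae is also carried by some dendritic cells: of 4 genes of that type tested, Batf3 and Irf8 fell in all 3 treatments at week 13, with changes of -0.83 to -1.35, and Irf8 also at week 6 under jak3i and jak12i. Xcr1, a defining gene of that type, did not pass the filter. Of 3 natural killer and innate lymphoid genes tested, Klrd1 fell at week 13 under all 3 treatments and Zbtb16 rose under il15rb and jak12i. Klrd1 had also fallen under il15rb at week 5 and under jak12i at week 6, and Ncr1, a defining gene of natural killer cells, did not pass the filter. Of 6 macrophage genes, 5 fell under jak3i at week 6, and none passed at week 13. Of 3 Langerhans cell genes, Cd207 passed in no treatment comparison, Cd74 and Epcam fell under all 3 at week 13, and Cd74 also under jak3i and jak12i at week 6. Fat genes moved the other way at week 13: Adipoq, Cidec and Fabp4 rose under all 3 treatments. All 6 hair shaft keratins fell under jak12i at week 13, with a mean level of 5.47 to 6.66 in jak12i and 9.43 to 11.7 in PBS gavage. The mean of the 6 epidermal genes was 12.53 to 13.36 in every array, as skin would have. Of these genes Krt5 and Krt14 fell and Lor rose under il15rb at week 13, and Krt1 and Krt14 fell under jak12i. The part of these cells in the results was not tested.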

How the data were processed

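Skin RNA was measured on 48 Affymetrix mouse arrays. The deposited values are log2 signals from RMA, as the submitters' processing notes name it without a version; whether all arrays were normalized together is not given in the sources used here. No value column was left unused. Of 45101 probe sets, 34958 name 1 gene, 932 several and 9211 none, and the probe set with the highest mean of the 47 grouped arrays stood for its gene. A gene was tested if 3 or more arrays exceeded 6.70, the median of the whole table. Limma 3.58.1 in R 4.3.3 fitted 13 group means with empirical Bayes moderation; the procedure was tested on simulated data. Arrays with equal replicate numbers correlated between -0.492 and 0.236 over 22 pairs with group means removed, so no pairing was used. The number of arrays limits the precision.

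The members and lists were chosen with earlier results of these data known. Named are the members with all their probe sets, all 13 partners, at most 4 called genes of smallest p per other list and comparison, and the 5 most alike genes per member; values of marker genes were named after they were seen. Relative levels of Cd69, near background, were not computed. The wider T cell list held the 5 of its genes analysed here. Alternatives chosen after seeing the data were leaving out single arrays in differences and relative levels, leaving out PBS gavage replicates 3 and 5 of week 6, and leaving out the week 13 vehicle arrays of low muscle level.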

Additional observations from a re-analysis of the deposited data

Results flagged for a closer look

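Under jak3i the change against vehicle differed between weeks 13 and 6 by -2.34 for Cxcr6 and -1.21 for Itgae; 3 of 5 jak3i arrays of week 6 were near background for Cxcr6, which limits the fall that week could show. Under jak12i it differed by 0.78 for Trgv4. Each difference passed limma's test of the difference itself, but those of Itgae and Trgv4 missed the threshold when certain single arrays were left out. Cd69 in replicate 4 of jak12i at week 6 (4.64) lay far below the other 4 arrays of its group relative to their range, in a group near background throughout; chance gives such an array in about 1 of 20 groups, and 20 gene and group pairs were tested.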

How the results depend on the processing

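Values below are log2 changes in the order of the report, with adjusted p from limma unless an exact test is named, and where a call or value moved the cause was not tested. At week 13 the Cxcr6 and Itgae calls under jak3i and jak12i held in every alternative run, and those under il15rb in all but 1. Of 328 values of single genes under settings other than leaving out 1 array, 293 counted as unchanged. A tested value counted so if it stayed on its side of the threshold, and a call also had to keep its direction. An uncalled change could turn its sign, as Trgv4 under jak3i at week 13 did with 1422189_x_at. Values of Cd69 and of il15rb against PBS ip at week 5 were judged by size alone. They counted so if they moved by less than the pooled SD. Whether the Cd69 calls of week 13 held under these settings was not assessed. Trgv4 under il15rb at week 5 (-0.99) was -0.87 with quantile normalization, -0.69 as the mean of its probe sets, -1.14 with 1422189_x_at, 0.073 with 1427802_a_at, which is near background, and -0.66 or -1.16 with the array of conflicting labels counted as PBS ip or as il15rb. Itgae was -0.69 there with 1449216_at. Quantile normalization left 2 called genes in that comparison (10 before) and 1 between PBS ip and sham (4 before), and it moved Cxcr6 under jak3i at week 6 to -1.04 (adjusted p = 0.0518) and the Trgv4 difference between weeks under jak12i to 0.72 (adjusted p = 0.0824). Fitted on arrays of the same week only, Cxcr6 under jak3i was -1.11 (adjusted p = 0.104), Itgae under jak3i -1.07 (adjusted p = 0.064) and Itgae under jak12i -0.82 (adjusted p = 0.064) at week 6. Fitted on the 2 groups only, Cxcr6 under jak12i was -1.06 (adjusted p = 0.0898) and Itgae -0.82 (adjusted p = 0.135). With second probe sets, Cxcr6 under jak3i at week 6 was -1.24, Itgae under jak3i -0.53 and Itgae under jak12i -0.48. Against PBS of all routes and against PBS of the other route, Trgv4 under jak3i at week 6 was -0.72 (adjusted p = 0.000175) and -0.89 (adjusted p = 1.88e-05), Cd69 there -0.47 and -0.59, Trgv4 under jak12i at week 13 0.41 and 0.65, and Cd69 there -1.20 and -1.52. Against the other route alone, Itgae under jak12i at week 6 was -0.39 and Cd69 under jak3i at week 13 -0.84. Without PBS ip replicates 1 and 3, Cd69 under il15rb at week 13 was -0.26. Without PBS gavage replicates 3 and 5, Cxcr6 under jak12i at week 6 was -0.49 and Itgae -0.29. With a replicate block, Trgv4 under il15rb at week 5 was -0.90, Itgae under jak3i at week 6 -1.05 (adjusted p = 0.0784), Cxcr6 and Itgae under jak12i at week 6 -1.06 and -0.82 (adjusted p = 0.128 and 0.143), and under il15rb at week 13 -2.67 and -1.99 (adjusted p = 0.0701 and 0.0987). The block changed no other call, and the numbers do not pair the arrays. With Cd3e alone as the T cell level, relative Trgv4 was -0.50 under il15rb at week 5 (-0.34 with 5 T cell genes) and 0.48, 0.90 and 0.55 at week 13 under il15rb, jak3i and jak12i. Relative Cxcr6 was then -0.92 under jak3i at week 6 (exact p = 0.0357) and -1.92, -2.76 and -2.10 at week 13. Relative Itgae was -0.54 under il15rb at week 5, -0.60 under jak12i at week 6 (exact p = 0.0476) and -1.23, -1.58 and -1.26 at week 13 (-0.99 under il15rb with 5 T cell genes). Leaving out 1 array gave -1.30 to -0.82 for Cxcr6 and -1.25 to -0.81 for Itgae under jak3i at week 6, and -0.98 to -0.62 for Itgae under jak12i. For differences between weeks it gave -1.50 to -1.01 for Itgae under jak3i, 0.69 to 0.90 for Trgv4 and -1.37 to -0.97 for Cxcr6 under jak12i, and -1.42 to -0.71 for Cd69 under il15rb. With all arrays the Cd69 difference was -0.96. Both of its week 5 groups were near background, where no fall could show, so nothing is read from it. The Cd69 change differed by -0.63 to 0.086 between jak3i and il15rb and by 0.12 to 0.84 between jak12i and il15rb at week 13. All treated arrays of week 13 were near background for Cd69, which limits these differences. Relative Trgv4 under jak12i at week 6 spanned 0.052 to 0.145, with exact p = 0.0476 without PBS gavage replicate 2. Signal near background limits Cd69 throughout and the lowest Cxcr6 values at week 6.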

Other observations

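The week 5 array in no group, titled as PBS ip and labelled as IL15, read 6.92 for Trgv4, 5.80 for Cxcr6, 7.77 for Itgae and 4.72 for Cd69.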
